A study of Saccharomyces cerevisiae with 72 samples.

Results

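The first nucleosome downstream of a transcription start site (TSS), often called the +1 nucleosome, borders the nucleosome-depleted region in which a yeast promoter binds its factors. It is usually the best positioned nucleosome of a gene, and remodelers such as RSC and SWI/SNF slide or evict it, while transcription through it loosens its position. The data here concern the first nucleosomes of genes that were not listed as the parent of a LUTI, the long undecoded transcript isoform that starts upstream of a gene's own TSS. For each of 4965 TSS clusters without a LUTI, the nucleosome whose 2 h summit lay nearest downstream of the cluster midpoint was taken if it was within 150 bp, which gave 4738 nucleosomes. Of these, 713 lay within 200 bp of a binding summit of Ume6, the repressor of early meiotic genes, and were set aside. The remaining 4025 first nucleosomes, from 4025 genes and 4019 distinct positions, are a small part of the 67745 positions in the nucleosome table. The measured nucleosome values were not used to choose them, apart from the place of the 2 h summit.

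The cells were diploid SK1 *Saccharomyces cerevisiae* of strain UB14584, in which the copper-inducible *CUP1* promoter drives *IME1* and *IME4*, the inducers of meiotic entry, and which carries the *AMN1* allele of another laboratory strain. Both times came from this strain. Cells held for 2 h in sporulation medium without added copper were premeiotic, and cells at 4 h, after copper had been added at 2 h, were in meiotic prophase. MNase-seq, which reads the DNA that nucleosomes protect from micrococcal nuclease, had 4 libraries per time according to the labels, and the deposited table gives 1 pooled value per time without saying which libraries it holds. No spread between libraries is therefore known for any nucleosome value, and occupancy, fuzziness and summit shift are given without a test. TL-seq, which counts the 5′ ends of capped transcripts, had 4 libraries at each time according to the labels. The main test used 3 of them at each time. The RNA-seq used here came from another strain, UB20649, with tagged wild-type *UME6* and the same inducible genes. It had 3 replicates at 2 h and at 4 h. Other RNA-seq libraries, which the paper made in parallel with TL-seq, were not used. Between the MNase samples, cells had passed through S phase and the digestion was done in a larger volume, so that these differences and the stage cannot be told apart.

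Promoters of 7 genes with large occupancy differences at the first nucleosome are shown. The 2 h summits of these nucleosomes lie at or downstream of the start codon, those of *LEA1* and *BUD21* within the printed stretch. The first 6 had the largest differences among the genes named for their occupancy, fuzziness or TL-seq extremes. *ENO1*, which had the highest occupancy change of those genes, was added after its value was seen. Genes named only from a gene list, some with larger differences, were not considered here. Each runs 5′ to 3′ from 250 bases before the start codon to the 50 bases that begin with it, in the S288C genome of RefSeq (build R64). The SK1 letters may differ. Capitals mark the start codon and, upstream of it, every match on either strand to TATAAA (the TATA box core), GGCGGC (the core of URS1, the Ume6 site), ACGCGT (the MCB element of S phase genes), TTACCCG (a Reb1 core), AGGGG (the stress response element core) and a run of 10 A.
*RNP1* (chrXII:47414-47713, minus strand): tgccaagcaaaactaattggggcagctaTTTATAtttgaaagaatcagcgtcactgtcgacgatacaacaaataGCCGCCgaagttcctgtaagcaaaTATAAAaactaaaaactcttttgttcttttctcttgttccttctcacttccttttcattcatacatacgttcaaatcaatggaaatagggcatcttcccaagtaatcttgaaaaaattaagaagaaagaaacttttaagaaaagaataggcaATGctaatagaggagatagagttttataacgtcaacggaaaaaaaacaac
*SRT1* (chrXIII:469427-469726, minus strand): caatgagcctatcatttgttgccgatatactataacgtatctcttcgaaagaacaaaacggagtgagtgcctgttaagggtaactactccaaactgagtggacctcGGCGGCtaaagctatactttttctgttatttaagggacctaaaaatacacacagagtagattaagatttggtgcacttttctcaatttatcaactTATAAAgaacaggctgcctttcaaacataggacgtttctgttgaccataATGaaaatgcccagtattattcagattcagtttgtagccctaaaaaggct
*HTB2* (chrII:236242-236541, plus strand): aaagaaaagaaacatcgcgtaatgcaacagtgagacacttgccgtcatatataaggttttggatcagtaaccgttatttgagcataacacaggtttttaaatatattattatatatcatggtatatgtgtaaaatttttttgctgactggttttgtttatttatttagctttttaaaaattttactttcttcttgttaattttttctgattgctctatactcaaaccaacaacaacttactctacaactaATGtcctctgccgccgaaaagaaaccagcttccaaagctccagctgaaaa
*BUD21* (chrXV:472475-472774, plus strand): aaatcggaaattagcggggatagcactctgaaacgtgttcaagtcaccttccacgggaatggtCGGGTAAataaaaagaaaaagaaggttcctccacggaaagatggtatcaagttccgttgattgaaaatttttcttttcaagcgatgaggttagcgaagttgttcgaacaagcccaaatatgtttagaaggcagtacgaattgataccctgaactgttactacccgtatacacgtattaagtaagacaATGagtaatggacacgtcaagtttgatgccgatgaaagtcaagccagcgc
*REC8* (chrXVI:571329-571628, minus strand): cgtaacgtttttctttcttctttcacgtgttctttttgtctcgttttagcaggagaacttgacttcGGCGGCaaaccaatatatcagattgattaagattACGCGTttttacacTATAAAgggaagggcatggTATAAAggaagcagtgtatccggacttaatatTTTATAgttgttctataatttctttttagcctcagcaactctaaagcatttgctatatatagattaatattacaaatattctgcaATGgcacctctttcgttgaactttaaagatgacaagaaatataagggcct
*LEA1* (chrXVI:150364-150663, plus strand): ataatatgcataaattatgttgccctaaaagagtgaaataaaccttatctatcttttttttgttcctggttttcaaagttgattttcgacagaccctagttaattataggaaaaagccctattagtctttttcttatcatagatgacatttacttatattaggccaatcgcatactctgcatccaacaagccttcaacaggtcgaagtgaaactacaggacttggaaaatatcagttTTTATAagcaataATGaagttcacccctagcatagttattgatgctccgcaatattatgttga
*ENO1* (chrVII:1000677-1000976, plus strand): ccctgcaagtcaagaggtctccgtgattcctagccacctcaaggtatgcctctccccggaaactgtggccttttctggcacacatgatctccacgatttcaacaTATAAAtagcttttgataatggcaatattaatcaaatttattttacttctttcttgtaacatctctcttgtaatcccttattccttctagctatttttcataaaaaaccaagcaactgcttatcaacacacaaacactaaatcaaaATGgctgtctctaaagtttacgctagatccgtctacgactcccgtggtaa
The URS1 core stood in the promoters of *RNP1*, *SRT1* and *REC8*. Their first nucleosomes passed the distance rule because the nearest Ume6 summit lay 254, 272 and 273 bp from the nucleosome summit. The promoter of *HTB2* held none of the 6 motifs.

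The first nucleosomes were more occupied and less fuzzy at 2 h than the other positions. Their median summit occupancy at 2 h was 1705 (quartiles 1375 and 2013), in the signal units of DANPOS, the program that made the table, against 1075 for the 63726 positions that were no member. Their median fuzziness, a score of how far fragments scatter around the preferred position, was 37.2 at 2 h against 50.8 for the other positions. The median distance from the TSS cluster midpoint to the summit was 42.5 bp, with quartiles of 30.5 and 55.5 bp. The choice of members bounds this distance, since only the nearest downstream summit within 150 bp was taken. All summits lay on a grid of 10 bp, which limits the precision of every distance.

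Between 2 h and 4 h, the first nucleosomes were lower in occupancy and fuzzier. The median log2 ratio of 4 h to 2 h occupancy was -0.21 (quartiles -0.33 and -0.09), from a median of 1705 to one of 1473. Occupancy was lower at 4 h at 3433 of the 4025 members (85.3%), where 55.9% of all positions were lower. Most of these differences were small. A difference of 0.5 or more on the log2 scale was found downward at 293 members (7.28%, against 10.2% of all positions) and upward at 56 (1.39%, against 11.4%). Fuzziness was higher by a median of 1.58, and 2871 members (71.3%) were fuzzier at 4 h, where 60.7% of all positions were. A gain of 5 or more was found at 635 members and a loss of 5 or more at 195, or 15.8% and 4.84%, beside 16.5% and 7.49% of all positions.

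**Figure D1:**
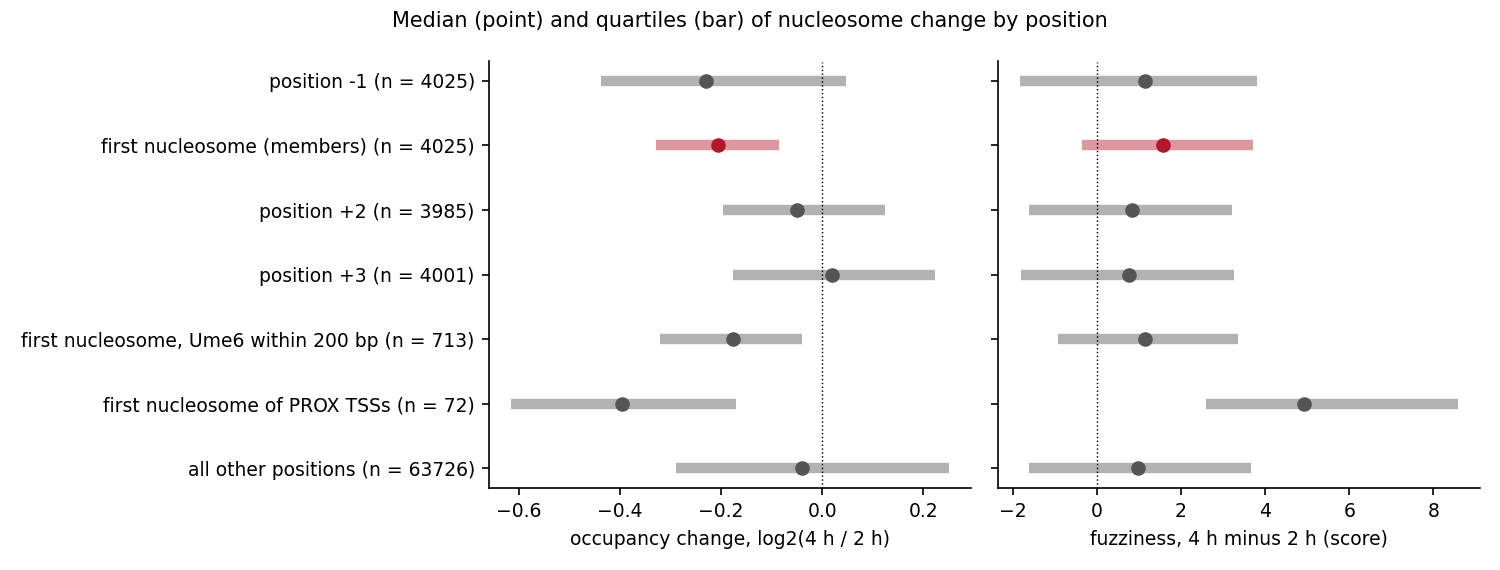
Change of occupancy (left, log2 ratio of 4 h to 2 h) and of fuzziness (right, 4 h minus 2 h) for the first nucleosomes, their neighbours and other sets of positions. Points are medians and bars run between the quartiles; the members have a median of -0.21 and +1.58, and the +2 and +3 positions lie near 0 in occupancy.

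The lower occupancy stood at the edges of the depleted region. Its median change was -0.23 at the nearest upstream position (-1), -0.21 at the first nucleosome, -0.05 at the +2 position and 0.02 at the +3 position. At 532 members the -1 position was itself the first nucleosome of another member, so these sets share positions. Part of the difference from other positions went with starting occupancy. In the lowest quintile of members by 2 h occupancy, the median change was -0.14 for members and 0.10 for the other positions in the same range. In the middle quintile, between 1590 and 1820, it was -0.22 for both, and in the highest it was -0.22 for members and -0.28 for other positions. The comparison was not tested, since each position has 1 pooled value per time. The first nucleosomes of the TSSs proximal to a LUTI (PROX), which are no members, had a median of -0.40 in occupancy and +4.93 in fuzziness (n = 72). Those near Ume6 had -0.18 and +1.15 (n = 713).

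The summit was at the same grid point at both times for 1579 members (39.2%), moved 10 bp or more into the gene for 1359 (33.8%) and moved 10 bp or more towards the depleted region for 1087 (27.0%). Moves of 20 bp or more were rarer, with 389 members into the gene and 298 out of it. The distance between the -1 and first summits had a median of 220 bp at both times. It was wider at 4 h for 1332 members and narrower for 1103. The median occupancy change of the members ranged from -0.24 to -0.14 over the 16 chromosomes, and the median fuzziness change from 0.97 to 2.43, so that no chromosome had a median gain of occupancy.

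The members' state at 2 h varied with the abundance of the transcript that starts beside them. Among 10 equal groups of members by TL-seq level at 2 h, median occupancy lay between 1619 and 1794 in the lower 9 groups and was 1260 in the most abundant, with at least 1713 normalized reads. Normalized reads are counts divided by a size factor for each library. Median fuzziness was 44.9 in this group and between 35.9 and 38.4 in the others. Its change to 4 h was also the smallest, at -0.06 in occupancy and -0.30 in fuzziness. At 4 h the most abundant group by 4 h level again had the lowest occupancy, 1291, and the highest fuzziness, 41.0, close to the 40.9 of the least abundant group.

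TL-seq called 864 members higher at 4 h (21.5%) and 955 lower (23.7%), by limma at a Benjamini-Hochberg adjusted p under 0.1. Over all 5114 clusters tested, 24.6% were higher and 23.8% lower, so the members were called at near the background rate. In 816 of the 864 every 4 h library was above every 2 h library, and in 904 of the 955 every one was below. Without replicate 1, 466 and 573 members were called, and without replicate 3, 491 were called higher. RNA-seq of UB20649 tested 4013 of the members and called 1164 higher (29.0%, against 30.6% of all features) and 1157 lower (28.8%, against 29.6%), by edgeR at an adjusted p under 0.05. Of the TL-seq calls, 631 rises and 719 falls were also called in the same direction by RNA-seq.

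Members whose transcripts rose had lower occupancy ratios than members whose transcripts fell, but the difference was small for most genes. The median occupancy change was -0.22 for members called higher, -0.22 for members not called and -0.16 for members called lower. The median fuzziness change was 2.01, 1.72 and 0.70 in the same order. Members called lower were already different at 2 h, with a median fuzziness of 41.2 against 36.1 for members called higher and a median occupancy of 1514 against 1734. The trend was clearest at the extremes. For the 117 members whose TL-seq signal fell by more than 3 on the log2 scale, the median change was -0.07 in occupancy and -1.95 in fuzziness. For the 67 members at or above +3, it was -0.31 and +1.94, and for the 45 members between 2 and 3 it was -0.33 and +3.10.

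**Figure D2:**
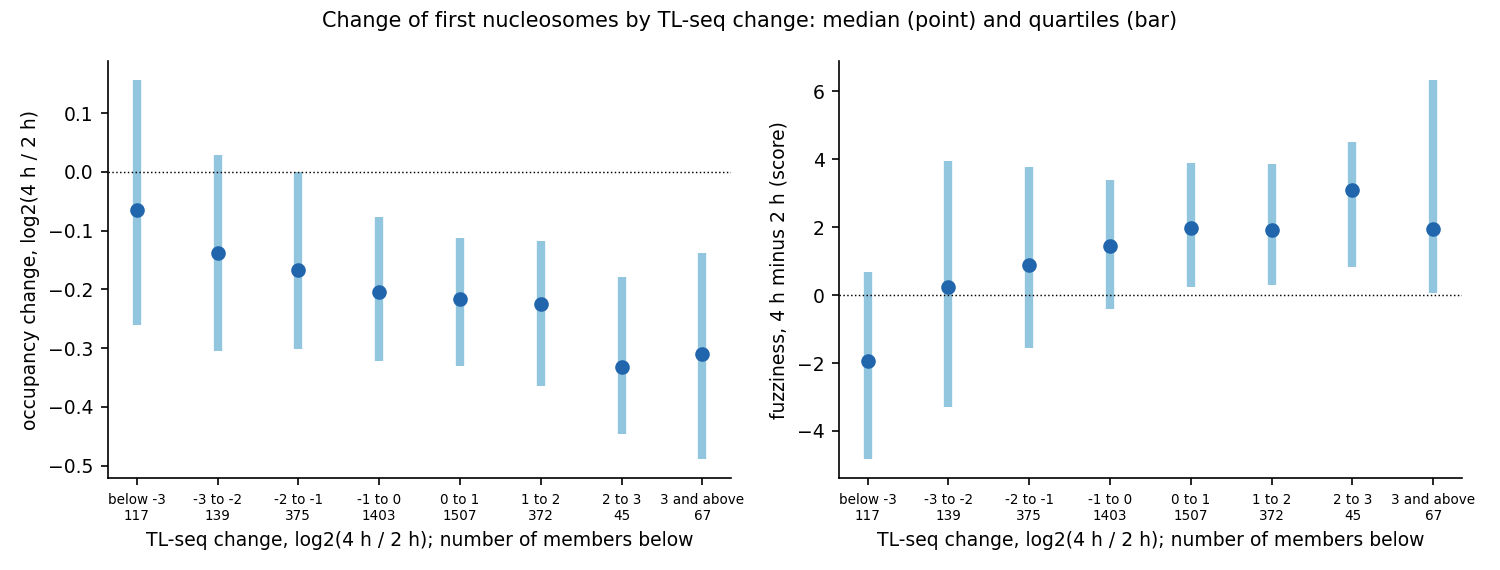
Occupancy change (left, log2) and fuzziness change (right, score) of the first nucleosomes, in bins of the TL-seq log2 change with the number of members under each bin. Points are medians and bars run between the quartiles; median occupancy change goes from -0.07 in the lowest bin to -0.31 in the highest.

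Across the 4025 members, Spearman's ρ with the TL-seq change was -0.14 for the occupancy change, 0.15 for the fuzziness change and 0.11 for the summit shift into the gene. Pearson's r was -0.18, 0.19 and 0.14. These describe genes of the same pooled libraries, which are not independent replicates, and no p is given. With TL-seq replicates 1, 3 and 5 taken alone, ρ for occupancy was -0.14, -0.13 and -0.13, and for fuzziness 0.15, 0.14 and 0.14. With the RNA-seq change of the other strain it was -0.14 and 0.18 (n = 4013). The occupancy and fuzziness changes, which are computed from the same fragments, had a ρ of -0.49. Fuzziness at 2 h, before induction, had a ρ of -0.25 with the TL-seq change, and occupancy at 2 h one of 0.14. Within quintiles of 2 h occupancy, ρ for the occupancy change weakened from -0.20 in the lowest to -0.05 in the highest. From the lowest to the highest quintile of 2 h fuzziness, ρ for the fuzziness change was 0.06, 0.10, 0.02, 0.08 and 0.16.

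The size of ρ varied with how far downstream the nucleosome lay, though not steadily for fuzziness. This pattern was not tested. For the 420 members with a summit less than 20 bp downstream, ρ with the TL-seq change was -0.09 for occupancy and 0.21 for fuzziness. Among the 1306 members with a summit from 20 up to 40 bp downstream, ρ with the TL-seq change was -0.03 for occupancy and 0.01 for fuzziness. Here members called higher and lower had nearly the same median changes, -0.23 and -0.21 in occupancy and 1.91 and 1.97 in fuzziness. For the 1531 members from 40 up to 60 bp, ρ was -0.09 and 0.08. Among the 521 members from 60 up to 100 bp, ρ was -0.21 and 0.20, and among the 247 from 100 to 150 bp it was -0.32 and 0.44. In this last class the 131 members called lower had a median occupancy change of 0.05 and a median fuzziness change of -2.83, against -0.20 and +2.72 for the 35 called higher. These distant nucleosomes were fuzzier at 2 h (48.7) and lower in occupancy (1308), and their transcripts were more abundant at 2 h, with a median of 493 normalized reads against 205 for members from 40 up to 60 bp. The part of these differences in the relation was not tested. At the edge of the window, the 111 members from 130.5 to 150 bp had a median occupancy change of -0.03, and the 130 nucleosomes left out at 150.5 to 170 bp had -0.07. At the Ume6 limit, members with a summit 201 to 250 bp away had -0.21 (n = 164), and nucleosomes left out at 151 to 200 bp had -0.19 (n = 250).

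**Figure D3:**
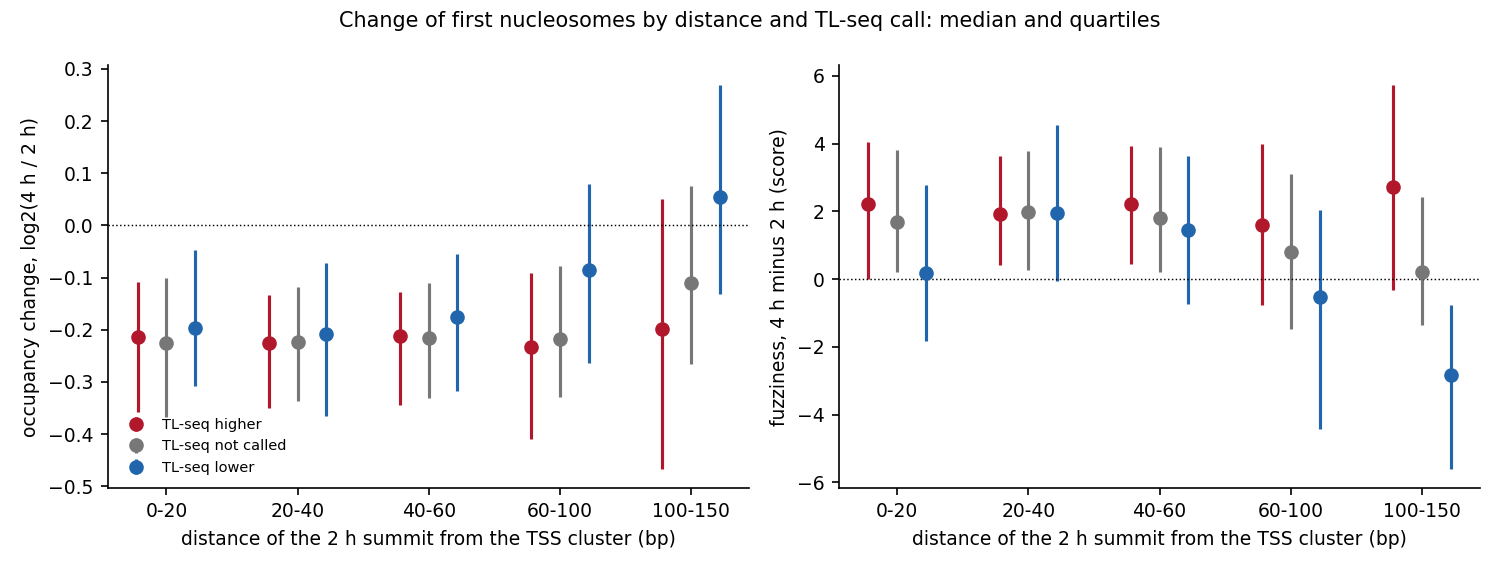
Occupancy change (left, log2) and fuzziness change (right, score) by the distance of the 2 h summit from the TSS cluster in bp, for members called higher, not called and called lower by TL-seq. Points are medians and lines run between the quartiles; the 3 calls overlap from 20 to 40 bp and lie apart from 100 to 150 bp, where the members called lower have medians of 0.05 and -2.83.

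Among the 8 members with the largest called rises in TL-seq, the first nucleosome was lower in occupancy at 4 h in all 8. It was fuzzier in 7. Of all members, 85.3% were lower in occupancy and 71.3% were fuzzier, so these counts lay near the share of all members. *REC8*, the meiotic cohesin subunit, had 21.1, 4.56 and 8.30 normalized reads in 2 h replicates 1, 3 and 5 and 4547, 5429 and 2868 at 4 h. Every 4 h library was above every 2 h library, and the log2 rise was 8.63 (SE 0.46, adjusted p = 9.7e-07). Occupancy of its first nucleosome went from 1780 to 1003, a log2 change of -0.83, and fuzziness from 43.7 to 50.2, while the summit lay 50 bp further into the gene. At a fixed point the direction turned for this gene, with 929 at 2 h and 968 at 4 h. *RNP1*, which encodes a ribonucleoprotein with RNA recognition motifs, had 6.74, 6.38 and 5.93 normalized reads at 2 h and 2567, 1645 and 1369 at 4 h, also without overlap (log2 rise 7.93, SE 0.27, adjusted p = 1.25e-07). Its nucleosome had the lowest log2 change of the 8, -1.18, from 948 to 417.

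*SRT1*, a cis-prenyltransferase that makes long polyprenols, went from 1345 to 652 in occupancy (-1.04) and from 43.7 to 56.2 in fuzziness. *SPO11*, which makes the double-strand breaks of meiotic recombination, went from 1125 to 666 (-0.76), with little change of fuzziness (41.3 and 42.6). *SAE3*, a partner of the recombinase Dmc1, went from 832 to 586 (-0.51), and its summit lay 60 bp further into the gene. These genes rose by 7.34, 8.03 and 8.57 on the log2 scale of TL-seq. Log2 rises of like size in TL-seq went with far smaller nucleosome differences at other genes. The occupancy change was -0.24 at *SPO23*, -0.11 at *IME2*, the kinase that drives meiotic progression, and -0.10 at *SPR28*, a sporulation septin. Their transcripts rose by 7.56, 7.00 and 7.04. The levels reached were not alike, with 4 h means of 598, 13027 and 365 normalized reads in this order. At *SRT1*, *SPO11* and *SAE3* the 4 h means were 11851, 2285 and 4097. The rises were also less alike in RNA-seq of UB20649. There the log2 change was 2.65 at *SPO23*, 4.38 at *IME2* and 1.10 at *SPR28*. It was 4.31 at *SRT1*, 4.24 at *SPO11* and 5.79 at *SAE3*. *IME2* was the exception in fuzziness, from 49.2 to 47.0, and its summit lay 70 bp nearer to the depleted region at 4 h. *SPR28* had a well positioned nucleosome at both times, with occupancies of 2134 and 1993 and fuzziness of 35.5 and 37.4. Most of the 8 nucleosomes lay little beyond the Ume6 limit. The nearest Ume6 summit was 215 to 273 bp away at *SPO11*, *RNP1*, *IME2*, *SAE3*, *SRT1* and *REC8*. It was 639 bp away at *SPO23* and 1779 bp at *SPR28*.

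**Figure D4:**
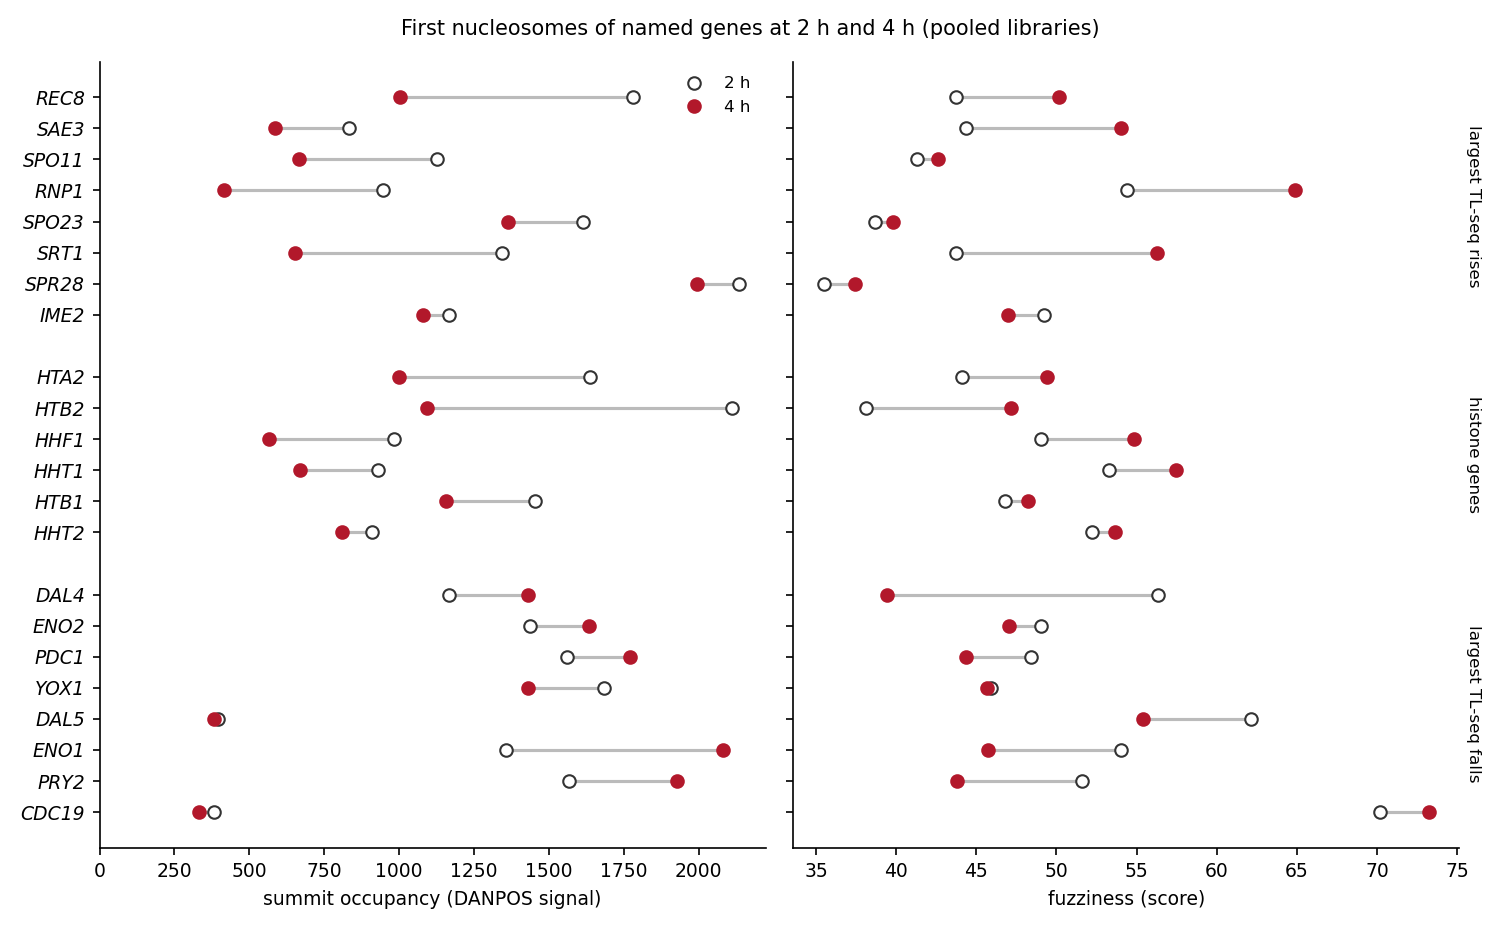
Summit occupancy (left, DANPOS signal) and fuzziness (right, score) at 2 h (open) and 4 h (filled) for the members with the 8 largest TL-seq rises, the 6 histone genes among the members and the 8 largest TL-seq falls. Each point is 1 pooled value. All rises and histone genes lie lower in occupancy at 4 h, as do 85.3% of all members, and 5 of the 8 falls lie higher.

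Among the 8 largest called falls, 5 first nucleosomes were higher in occupancy at 4 h and 7 were less fuzzy. Of all members, 85.3% were lower in occupancy and 71.3% were fuzzier. *ENO1*, a glycolytic enolase, had 29938, 35140 and 24278 normalized reads in the 2 h libraries and 206, 325 and 281 at 4 h, without overlap (log2 change -6.79, SE 0.25, adjusted p = 1.62e-07). Its nucleosome went from 1356 to 2082 in occupancy, a log2 change of 0.62, and from 54.0 to 45.7 in fuzziness, with the summit at the same place. *ENO2*, the other enolase, and *PDC1*, pyruvate decarboxylase, had occupancy changes of 0.19 and 0.18 and fuzziness changes of -1.95 and -4.08. *DAL4*, the allantoin permease, had the largest fall of TL-seq, -8.09, and its fuzziness went from 56.3 to 39.4 with an occupancy change of 0.30. *PRY2*, a sterol-binding secreted protein, also had an occupancy change of 0.30. In the other 3 genes occupancy was lower at 4 h. *CDC19*, pyruvate kinase, had a fuzzy, sparsely occupied position at both times (383 and 334, fuzziness 70.2 and 73.3), *DAL5*, the allantoate permease, had 395 and 384, and *YOX1*, a repressor of cell cycle genes, went from 1683 to 1430. The TL-seq change of *YOX1* was -6.96, while RNA-seq of UB20649 called it higher (0.37, edgeR adjusted p = 0.0272). Near-identical copies such as *ENO1* and *ENO2* can share reads, so values of such pairs are uncertain.

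The histone genes, which are transcribed for S phase, had the lowest median occupancy change of the 14 gene lists examined. Of 10 genes in the list, 9 had a TSS cluster and 6 were members, and TL-seq called 5 of the 6 higher and none lower. For this and the lists below, the shares to compare are 21.5% of all members called higher and 23.7% lower. Over all clusters tested they were 24.6% and 23.8%. *HTB2*, which encodes histone H2B, had 4904, 1359 and 7931 normalized reads at 2 h and 13254, 24587 and 30051 at 4 h, without overlap (log2 rise 2.51, SE 0.58, adjusted p = 0.00744). Its nucleosome, 52 bp inside the coding sequence, went from 2111 to 1093 (-0.95) and from 38.1 to 47.2 in fuzziness. The change was -0.80 at *HHF1*, for histone H4 (984 to 564), and -0.71 at *HTA2*, for histone H2A (1637 to 999), though *HTA2* missed the TL-seq threshold (log2 change 1.58, adjusted p = 0.11) and passed it with a block for replicate (adjusted p = 0.0035). At *HHT1*, *HTB1* and *HHT2* it was -0.47, -0.33 and -0.17. Occupancy was lower and fuzziness higher in all 6, beside 85.3% and 71.3% of all members. The medians were -0.59 and +4.77, against -0.21 and +1.58 for all members. *HTA2* with *HTB2* and *HHT1* with *HHF1* are divergent neighbours that share a promoter, so these are not independent loci.

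Meiotic lists came next in order. Of 14 members among the meiotic recombination and synapsis genes, 10 were called higher and none lower. Their median occupancy change was -0.34 and their median fuzziness change +4.17. All 14 were lower in occupancy, beside 85.3% of all members. A further 18 genes of this list were set aside for a nearby Ume6 summit. Of 17 members among the middle sporulation genes, 13 were called higher and 1 lower, with medians of -0.33 and +1.94. *SSP2* (-0.58) and *SPS18* (-0.47), both needed for or induced in spore formation, had the lowest occupancy changes of those named, and *CDA1*, a chitin deacetylase of the spore wall, had -0.36. In this order they rose by 5.83, 5.92 and 6.91 in TL-seq, but by 1.08, 0.84 and 0.56 in RNA-seq of UB20649. RNA-seq called *SPS18* (edgeR adjusted p = 0.0104) but not *SSP2* or *CDA1* (edgeR adjusted p = 0.134 and 0.138). Of 39 members in DNA replication and dNTP synthesis, 11 were called higher and 8 lower, beside 21.5% and 23.7% of all members. Occupancy was lower in all 39, beside 85.3% of all members, with a median change of -0.27. *POL2*, the catalytic subunit of DNA polymerase ε, and *DPB4*, another subunit of that enzyme, rose by 1.86 and 2.43 in TL-seq, with occupancy changes of -0.57 and -0.54.

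Metabolic lists had the highest occupancy medians. Of 23 members in glycolysis and storage carbohydrates, 20 were called lower and none higher, beside 23.7% and 21.5% of all members. The median change was 0.09 in occupancy and -1.95 in fuzziness. Occupancy was lower in 10 of 23, beside 85.3% of all members. The respiratory chain and ATP synthase had a median of 0.13 and -1.75 (24 members, 2 higher and 8 lower), although its transcripts changed little (median TL-seq log2 change -0.26). *COX4*, a subunit of cytochrome c oxidase, had an occupancy change of 0.95 (732 to 1417) with a TL-seq change of -0.94. *QCR9*, of the cytochrome bc1 complex, had 0.62 with a TL-seq rise of 0.64, while RNA-seq of UB20649 called it lower (-0.97, edgeR adjusted p = 0.00669). The TCA, glyoxylate and acetate genes had a median of 0.11 and -0.48 (21 members, 6 higher and 9 lower). *ACS2*, an acetyl-CoA synthetase, was far from this median at -1.28 and +14.4, although its transcripts fell by 3.25.

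**Figure D5:**
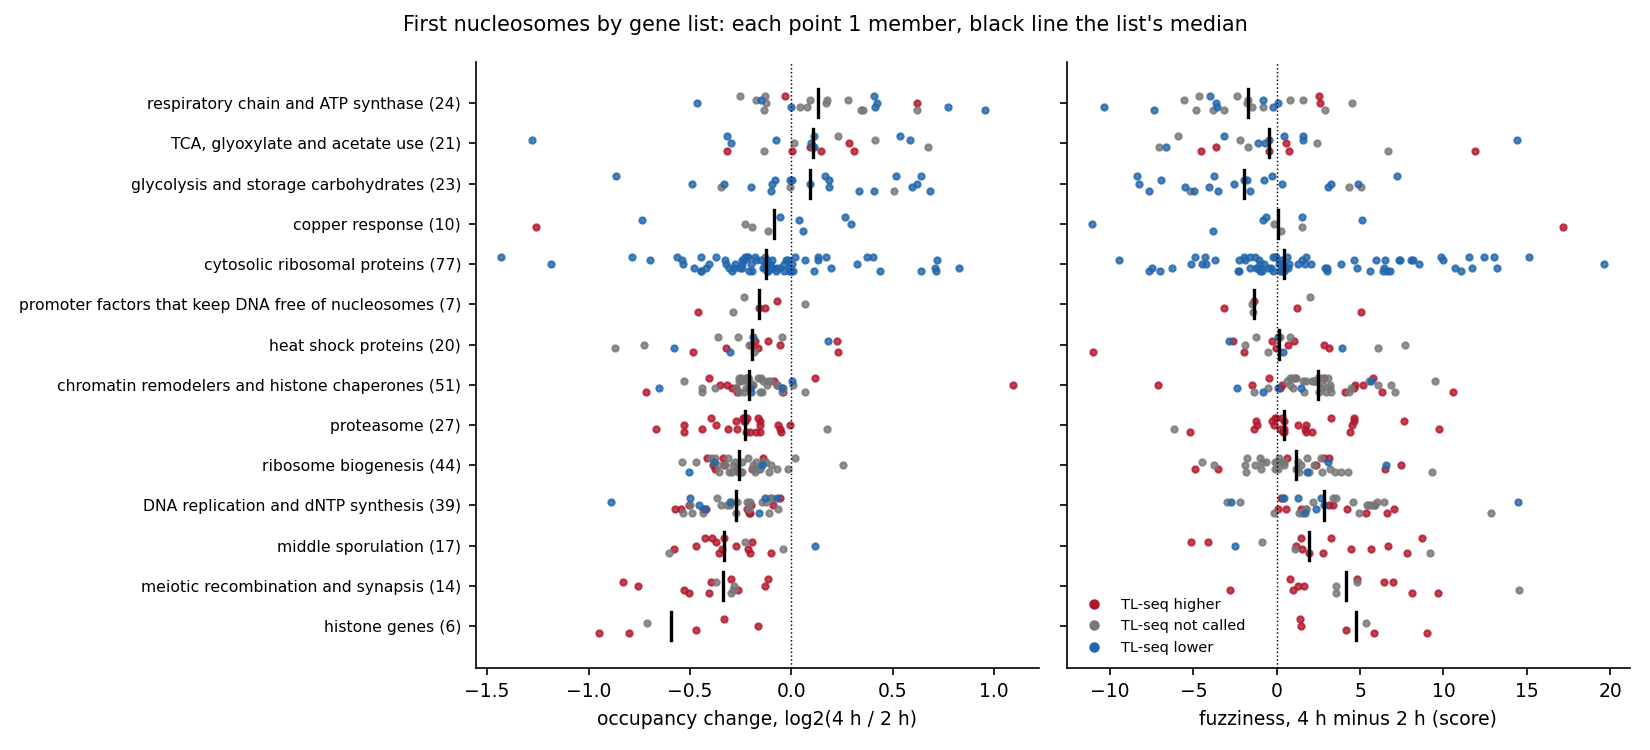
Occupancy change (left, log2) and fuzziness change (right, score) of each member in 14 gene lists, with the number of members after each name, coloured by TL-seq call. Black lines are list medians; the histone genes have the lowest occupancy median, -0.59, and the respiratory chain the highest, 0.13.

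The remaining lists had occupancy medians between -0.26 and -0.09. The proteasome had 26 of 27 members called higher and none lower, and its medians of -0.23 and +0.44 lay near those of all members in occupancy and below them in fuzziness. The occupancy change was -0.53 at *RPT1*, an ATPase of its regulatory particle, and -0.16 at *RPN12*, at TL-seq rises of 1.90 and 2.12. Of 77 members among the cytosolic ribosomal proteins, 76 were called lower and none higher, with medians of -0.13 and +0.44 and a range in occupancy from -1.43 to 0.83. Many of these genes have a near-identical copy. Of 44 members in ribosome biogenesis, 8 were called higher and 3 lower (median -0.26 and +1.17). Of 51 remodelers and histone chaperones, 15 were called higher and 5 lower (median -0.21 and +2.49). These calls stand beside 21.5% and 23.7% of all members. *SWC5*, of the SWR1 complex that places histone H2A.Z in first nucleosomes, went from 1726 to 1050 (-0.72) at a TL-seq rise of 1.75, and *SWC4* of the same complex had 0.11 at a rise of 1.45. Heat shock proteins had 9 of 20 members called higher and 4 lower, with medians of -0.19 and +0.12.

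The list of factors that bind promoter DNA, some of which keep it free of nucleosomes, had 7 members. TL-seq called 4 of them higher and none lower, beside 21.5% and 23.7% of all members. The list's medians were -0.16 in occupancy and -1.34 in fuzziness. The lowest occupancy change, -0.46, was at *ABF1*, a general regulatory factor, with +5.03 in fuzziness. It was -0.29 at *SPT15*, the TATA-binding protein, -0.23 at *PHO2*, -0.16 at *TBF1*, -0.13 at *CBF1*, -0.07 at *MCM1* and 0.07 at *GCN4*. Of 10 members in the copper response, 1 was called higher and 6 lower. *CUP1-2*, a copper-binding metallothionein, rose by 4.82 (SE 0.77, adjusted p = 0.000965), and its nucleosome went from 2239 to 935 (-1.26) and from 37.3 to 54.5 in fuzziness. *CUP1* lies in repeated copies, and the strain carries its promoter at further places, so reads cannot be assigned to 1 copy. *CTR3* and *CTR1*, copper transporters that are shut off by copper, fell by 4.11 and 3.04, with occupancy changes of 0.06 and -0.06. *FRE7*, of the same list, had a TL-seq change of -4.92 with an occupancy change of -0.74 and a fuzziness change of +5.12.

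Some of the largest nucleosome differences stood at genes without a TL-seq call. Among members at or above the median of the mean summit value, the 5 with the largest loss of occupancy were *HTB2*, *BUD21* (-0.94), *LEA1* (-0.76), *RSA1* (-0.68) and *RTC6* (-0.67). *BUD21* and *RSA1*, which act in ribosome assembly, and *RTC6*, a mitochondrial ribosomal protein, were not called by TL-seq, and *LEA1*, of the U2 snRNP, fell by 0.89. *BUD21* went from 2310 to 1206 with +11.2 in fuzziness, and RNA-seq of UB20649 called it higher (2.27, edgeR adjusted p = 1.38e-05). The 5 with the largest gain were *ENO1*, *MRH1* (0.56), *SUC2* (0.54), *COX5A* and *MEP2* (0.41 each). *SUC2*, the invertase, fell by 2.12 and *MEP2*, an ammonium permease, by 2.41 in TL-seq, and *COX5A* fell by 0.49 (adjusted p = 0.09). *MRH1*, a plasma membrane protein, had a TL-seq change of -0.52 that missed the threshold (adjusted p = 0.37), while RNA-seq of UB20649 called it lower (-3.41, edgeR adjusted p = 2.2e-05).

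Among the same members at or above the median of the mean summit value, the 5 largest gains of fuzziness were at *COS111* (16.5), *MLH2* (14.5), *MTW1* (11.6), *DAD1* (11.5) and *BUD21*. *MTW1* and *DAD1* encode kinetochore proteins and rose by 1.30 and 0.81 in TL-seq, and *MLH2*, a mismatch repair factor, was not called. Summits of the first 4 lay 20 or 30 bp further into the gene at 4 h. The 5 largest losses in this set were at *PAP2* (-12.8), *KRE6* (-11.3), *FRE1* (-11.1), *DAL1* (-10.4) and *FAR10* (-9.81). *KRE6*, of cell wall glucan synthesis, *FRE1*, a ferric and cupric reductase, and *DAL1*, allantoinase, fell in TL-seq, with log2 changes of -1.13, -2.01 and -5.39. *PAP2* and *FAR10* were not called.

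The relation with TL-seq was also found beyond the first nucleosome. At the +2 and +3 positions of the members, ρ between the TL-seq change and the occupancy change was -0.23 and -0.24, and for fuzziness 0.21 and 0.20. At the -1 position it was -0.05 and 0.10. The median occupancy change was 0.05 at +2 and 0.13 at +3 for genes called lower, and -0.10 and -0.06 for genes called higher. In 265 divergent pairs whose -1 position was the partner's first nucleosome, the occupancy changes of both had a ρ of 0.31. The compared sets were not tested against each other.

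Promoter letters were examined in the S288C windows upstream of the start codon, which were found for all 4025 members. The TATA core TATAAA was in 42.4% of the members' promoters and in 43.4% of all 6001 promoters. The URS1 core GGCGGC was in 1.69% of the members and 4.17% of all promoters, and in 15.0% of the genes set aside for Ume6. Members called higher held it in 3.13% and members called lower in 0.838%. The stress element core AGGGG was in 13.3% of members called higher, 22.6% of members called lower and 18.8% of all promoters. The Reb1 core TTACCCG was in 9.38% and 4.71% of the same groups and in 7.03% of all promoters. Members with the Reb1 core had a median 2 h fuzziness of 34.97 against 37.49 without it. Members with the MCB element ACGCGT (134, or 3.33% of members and 2.90% of all promoters) had a median occupancy change of -0.26 against -0.20 without it. A run of 10 A, in 17.4% of members and 15.9% of all promoters, went with medians of -0.22 with and -0.21 without it. These shares are descriptions, and a match does not show that a factor was bound.

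Genes that mark the stage were checked against the labels. The early meiotic genes *SPO11*, *HOP1*, *ZIP1*, *REC8* and *DMC1* rose by 8.03 to 9.30 on the log2 scale of TL-seq. *NDT80*, *SPS4* and *SPR3*, genes of the middle stage, also rose, by 8.77, 6.64 and 7.03. *IME1* rose by 3.26, and since its own promoter was replaced in this strain, its first nucleosome in the reference coordinates may not lie beside the start site in use. Depth in the TL-seq clusters ran from 3214263 to 8295842 reads over the 6 libraries of the main test. The nucleosome table holds no library totals, so the depth behind each occupancy is unknown.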

How the data were processed

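MNase-seq, TL-seq, RNA-seq and Ume6 ChIP-seq of SK1 yeast were used. For MNase-seq, the authors aligned fragments of mononucleosome length with bowtie2 and ran DANPOS on libraries of each time together, and the deposited table gives per nucleosome a summit signal, the signal at a fixed point, a fuzziness score and summit positions for 2 h (control) and 4 h (treated). How DANPOS scaled the libraries is not given in the sources used here. Its columns of log2 changes and p-values, like those of the authors' own comparisons in the TL-seq tables, were not used. For TL-seq, the deposited signal is reads per TSS cluster divided by a size factor per library, and all values returned to whole reads within 0.01. For RNA-seq, the authors ran Salmon and deposited expected counts, which were rounded to whole numbers here. Ume6 summits came from the deposited peak lists of 3 replicates, called in saturated cultures of another strain. Per-sample columns of series tables that were not used numbered 32.

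Occupancy change was the log2 of the 4 h over the 2 h summit signal, and fuzziness change the difference of scores. TL-seq was tested with limma 3.58.1 with a variance trend on log2(value + 1) over 5114 clusters, so that fold changes of low clusters are understated. For RNA-seq, edgeR 4.0.16 (quasi-likelihood) was fitted over 5482 features after the default filter on low counts. Adjustment was by Benjamini-Hochberg, and both fits were tested on simulated data. Deviations of TL-seq libraries with the same number correlated between the times (0.172 and 0.172 for replicates 1 and 3, and 0.395 for replicate 5), which meets the criterion for pairing. The calls given are from the fit without a block, and with a replicate block, run as an alternative, 1027 members were higher and 1088 lower. The labels do not say whether replicates were separate cultures, so p-values measure only the spread between these samples.

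Gene names came from RefSeq (R64), in which all 4025 genes matched. Named genes were the 5 largest rises and falls of occupancy and of fuzziness among members at or above the median of the mean summit value, the 8 largest called rises and falls of TL-seq without overlap and with at least 50 normalized reads at the higher time, all histone genes and promoter factors, and up to 4 called members with the largest TL-seq change of each other list. Members and lists were chosen with earlier results of these data known. Alternatives covered pseudocounts, filters, count models, windows, Ume6 distances, the replicate block, a second TL-seq table and leaving out each replicate. Scripts ran in R 4.3.3 and Python 3.11.15.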

Additional observations from a re-analysis of the deposited data

How the results depend on the processing

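The median occupancy change of the first nucleosomes lay between -0.21 and -0.20 and the median fuzziness change between 1.38 and 1.77 under every alternative run for them (other windows, Ume6 distances, the 4 h summit, a filter on occupancy, fixed points or unmoved summits). Having no replicates, these medians were compared by tolerances set by hand, 0.05 on the log2 scale and 0.5 in fuzziness. No median or ρ changed direction. At the fixed point, the occupancy change turned in sign at 55 of 4025 members, *REC8* among them. The replicate block changed the TL-seq call of *HTA2* and of no other named gene. Spearman's ρ between occupancy and TL-seq change was -0.14, and -0.094 with a window of 100 bp, -0.156 with 250 bp, -0.136 without the Ume6 condition, -0.127 over 500 bp from Ume6, -0.157 with positions chosen by the 4 h summit and -0.133 with a filter at the 25th percentile of occupancy. For fuzziness it was 0.15, and 0.101, 0.175, 0.147, 0.133, 0.166 and 0.142 under the same settings, and 0.176 with the RNA-seq change. The cause was not tested. Leaving out each TL-seq replicate in turn gave -0.140 to -0.137 and 0.149 to 0.150. It gave 787 to 1418 clusters higher and 756 to 1302 lower, and 466 to 988 members higher and 573 to 1022 lower. The second table, with fewer clusters and libraries, called 811 clusters higher and 805 lower, and 624 members lower. The replicate block gave 1472 and 1380 clusters in TL-seq. In RNA-seq, where numbers did not pair the samples (correlations of -0.075, 0.194 and -0.039), it gave 1546 and 1530 genes against 1675 and 1620. The pooled nucleosome values allow no paired analysis and no left-out library.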
